A study of Mus musculus with 23 samples.

Results

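The cells described here are those of the low AF647 bins of mouse brain after a dose of ATV-TfR or ATV-CD98hc, 2 libraries of each. They were chosen by library, through the library number carried by each barcode, and by a filter of at least 500 genes, at least 800 unique molecular identifiers (UMIs, counted RNA molecules) and at most 10% mitochondrial UMIs. Of 76825 barcodes in the 4 libraries 72091 passed, 16150 and 18052 in ATV-TfR low pools 1 and 2 and 18055 and 19834 in ATV-CD98hc low pools 1 and 2, of 249715 passing barcodes in all 23 libraries of the series. Removal of 5632 probable doublets left 66459 cells, 31881 from ATV-TfR and 34578 from ATV-CD98hc.

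The study followed where intravenous antibodies coupled to the dye AF647 went in the brain, by sorting live brain cells on AF647 signal before droplet RNA sequencing. ATV-TfR, labelled DNP02_hIgG1_LALAPG_ATV35.23.2, was given to TfR mu/hu KI mice, and ATV-CD98hc, labelled DNP02 LALAPG LLB2-10-8 monovalent, to CD98hc mu/hu KI mice. Both were dosed at 45 mg/kg in mice whose age is 3.3 months in the sample labels and 12 weeks in the series' design text, and brains without olfactory bulbs, cerebellum, pons and medulla were taken 24 hours later. Each pool joined the dissociated cells of 1 male and 1 female. Antibody and knock-in allele coincide in these groups, so their parts in any difference cannot be told apart. The low bin is the lowest tertile of AF647-positive cells in the ATV-TfR mice, and per the labels the same gates were used for ATV-CD98hc. About 30% of live cells were positive with ATV-TfR and about 20% with ATV-CD98hc. Cells of the AF647-negative bins (25798 passing, 2 libraries per ATV) were set beside the low bins where they bear on a result. The control IgG low bins held 27 astrocyte-like cells in all, too few for use as a background within astrocytes. The control IgG negative bin has 1 library here.

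An antibody transport vehicle (ATV) is an antibody whose constant region was engineered to bind a receptor of the brain capillary wall, which carries it into the tissue. The transferrin receptor, encoded by Tfrc, takes up iron-loaded transferrin in most cells, and its RNA is destabilised when a cell has iron enough. CD98hc, encoded by Slc3a2, is the heavy chain that brings amino acid transporters such as LAT1 (Slc7a5) to the cell surface, and it is made by endothelial cells and astrocytes alike. Astrocytes wrap capillaries with their endfeet, clear glutamate and GABA, and differ between the telencephalon and other brain regions in their transcription factors and transporters.

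The 4 libraries were of like depth. They held 70569783 to 83983229 UMIs in the deposited matrix, and the median kept cell had 3732 and 3987 UMIs in ATV-TfR low and 3156 and 3522 in ATV-CD98hc low. Within astrocyte-like cells the median was 3694 and 3947 UMIs against 3382 and 3768, and the median mitochondrial share was 2.39% and 2.42% against 3.12% and 3.17%. Scrublet removed 12.2% of barcodes in ATV-CD98hc low 1 and 5.61% to 7.03% in the other libraries. In ATV-CD98hc low 2 its automatic threshold marked 0%, and the 5.61% removed there came from a fixed percentile of the score. Pairs of the 4 libraries shared 57 to 89 barcode sequences. Haemoglobin and other erythroid markers summed to 433 CPM, UMIs scaled to a common library total, in astrocyte-like cells of ATV-TfR low 2 and to 81.5 to 112 CPM in the other libraries. Nothing in the labels says more of the pools than their animals, so every p-value below measures the spread between 2 pools per group, and intervals on counts of cells cover counting error only.

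Both low bins consisted mainly of astrocyte-like cells, the class with the markers Slc1a2, Slc1a3, Aqp4 and others, and differed in the vascular and immune cells that came with them. Astrocyte-like cells made up 80.9% and 85.2% of kept cells in ATV-TfR low and 63.9% and 67.5% in ATV-CD98hc low. Endothelial-like cells made up 2.42% and 1.54% in ATV-TfR low against 12.9% and 13.2% in ATV-CD98hc low, 6.57 times as many. Microglia-like cells, the resident macrophages of brain tissue, made up 3.00% and 2.14% against 12.1% and 9.72%, 4.24 times as many in ATV-CD98hc low. For all 3 classes the pools of the 2 groups did not overlap.

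Of 17 classes 6 (35.3%) passed the test, 3 higher (17.6%) and 3 lower (17.6%) in ATV-TfR low, by edgeR's quasi-likelihood test on cells per library with Benjamini-Hochberg adjustment. The log2 difference, ATV-TfR low minus ATV-CD98hc low, was -2.71 ± 0.28 (SE) for endothelial-like cells (adjusted p = 4.13e-10), -2.08 ± 0.28 for microglia-like cells (adjusted p = 1.36e-07) and 0.34 ± 0.11 for astrocyte-like cells (adjusted p = 0.017). B cell-like cells were fewer (12 cells against 90, log2 -2.83 ± 0.94, adjusted p = 0.017) and smooth muscle-like cells more frequent (97 against 19, log2 2.49 ± 0.89, adjusted p = 0.0235) in ATV-TfR low. The endothelial and microglial differences stayed past the threshold in all 10 alternatives run. Those of B cell-like and smooth muscle-like cells were lost on leaving out any 1 of the 4 libraries, and that of astrocyte-like cells on leaving out either ATV-CD98hc library; without ATV-CD98hc low 1 the adjusted p was 0.382 for each of the 3. With TMM factors over the classes the astrocyte-like difference was 0.11 (adjusted p = 0.892), and with all libraries in 1 fit its adjusted p was 0.29. As a share of cells outside the astrocyte-like class, B cell-like cells were at -1.73 (adjusted p = 0.245) and border macrophage-like cells at 0.69 (adjusted p = 0.0357), against -0.33 (adjusted p = 0.682) as a share of all kept cells.

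**Figure D1:**
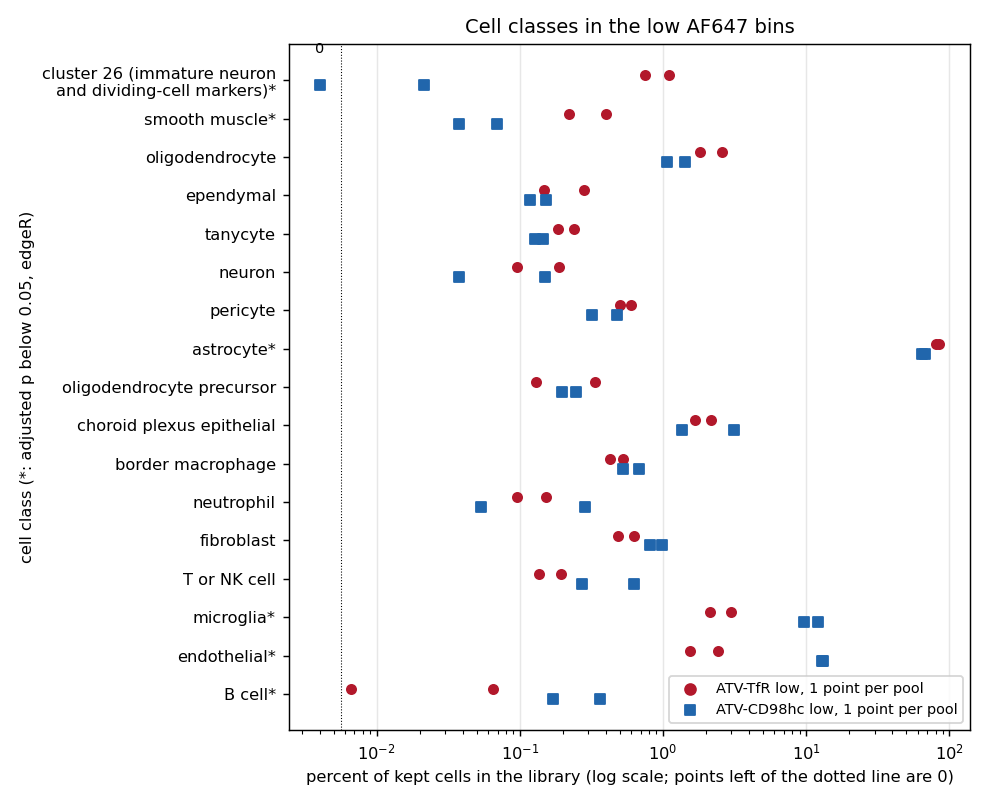
Share of kept cells in each of 17 classes (log axis, percent) in the 2 ATV-TfR low and 2 ATV-CD98hc low libraries, each point 1 pool. Endothelial-like cells lie at 1.54% to 2.42% in ATV-TfR low and at 12.9% to 13.2% in ATV-CD98hc low, and cluster 26 lies at 0.753% to 1.10% and at 0% to 0.0214%.

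The sixth class was 1 cluster of cells, number 26, which carried markers of immature neurons (Dcx, Sox11, Dlx1, Dlx2) and, among its leading genes, of dividing cells (Top2a, Ube2c, Mki67). Dcx encodes a microtubule protein of migrating young neurons, and the Dlx genes encode transcription factors of the ganglionic eminence and of its adult remnant in the ventricular wall. Cluster 26 had 165 and 127 cells in ATV-TfR low (1.10% and 0.753%) and 0 and 4 cells in ATV-CD98hc low (0% and 0.0214%). A count of 0 in 15856 cells allows a share of up to 0.0189%. Over both pools the share was 79.2 times as high in ATV-TfR low (95% interval 30.6 to 292.5, exact binomial), and the adjusted p was 3.08e-06 by edgeR.

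The negative bins held the cluster under both ATVs, at 0.307% and 0.157% of kept cells with ATV-TfR and 0.466% and 0.566% with ATV-CD98hc. Its share was thus above its negative bins in both ATV-TfR low pools and below them in both ATV-CD98hc low pools. In ATV-TfR low, 46.7% and 56.7% of its cells held an Mki67 UMI and 76.4% and 84.3% a Sox11 UMI. A Dcx UMI was in 37.6% and 38.6%. For Mki67, Sox11 and Dcx the shares were 46.15%, 73.1% and 61.5% in ATV-TfR negative 1 and 50%, 90% and 50% in ATV-CD98hc negative 1. These libraries held 26 and 30 cells of the cluster. The astrocyte gene Slc1a2 was at 1691 and 1734 CPM in cluster 26 of ATV-TfR low, against 725 and 1037 CPM in those negative libraries. Aldoc was at 503 and 559 CPM against 55.7 and 125 CPM. The part of other cells' RNA in the cluster was not tested. Its cells were deep, with a median of 8527 UMIs, 2.20 times their libraries' medians. Doublet scores were used to remove barcodes and the difference was as large with them kept (log2 6.32 against 6.26). With the replicate number as a block the adjusted p was 0.0622.

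The endothelial-like class had a different mix of clusters in the 2 groups. Of 624 endothelial-like cells in ATV-TfR low 384 were of cluster 31, led by Gkn3, Bmx and Sema3g, genes known from arterial endothelium, and 161 were of cluster 33. In ATV-CD98hc low 2532 of 4504 were of cluster 33, led by Cxcl12, Ly6c1 and Itm2a, 1061 of cluster 31 and 796 of cluster 34, led by Slc38a5 and Slco1a4. Fibroblast-like cells, of the meninges and vessel sheaths, were 136 of cluster 45 and 40 of cluster 30 in ATV-TfR low, and 36 and 275 in ATV-CD98hc low. These counts describe which cells each class held. Whether the clusters' leading genes differ between the groups within a cluster was not tested.

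Astrocyte-like cells fell into 16 clusters, not counting clusters 11, 17 and 32. Those held astrocyte markers but were led by neuronal or microglial genes and stayed unnamed. Clusters with markers such as Lhx2 and Mfge8 were called telencephalic and those with markers such as Agt, Itih3 and Slc6a11 non-telencephalic. Agt encodes angiotensinogen and Slc6a11 a GABA transporter, both known from astrocytes outside the telencephalon. Telencephalic astrocytes made up 50.9% and 52.2% of astrocyte-like cells in ATV-TfR low and 39.3% and 45.4% in ATV-CD98hc low. The 2 groups did not overlap, but the difference did not pass the test (log2 0.28 ± 0.12, adjusted p = 0.12, edgeR).

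Of the 16 clusters, 7 (43.8%) differed in their share of astrocyte-like cells, 5 higher (31.2%) and 2 lower (12.5%) in ATV-TfR low. In clusters 2, 8 and 19 at least 1 of the 10 leading genes itself differed between the ATVs within the cluster, and their sizes are not compared here. In clusters 20, 3, 27 and 5 none of the 10 leading genes passed that test, and these 4, which are telencephalic, were larger in ATV-TfR low. Clusters 20, 3 and 27 held 162, 226 and 148 cells in ATV-CD98hc low, so a gene could miss the test for lack of depth. Crym, the first leading gene of cluster 20, was at 0.45 ± 0.12 within it (adjusted p = 0.0782, edgeR). Cluster 20, led by Crym, Lmo1, Dkk3 and Six3, made up 3.25% and 3.03% of astrocyte-like cells in ATV-TfR low and 0.631% and 0.775% in ATV-CD98hc low. Its log2 difference was 2.15 ± 0.27 (adjusted p = 6.81e-08, edgeR), 4.47 times by the group means. Crym encodes mu-crystallin, a thyroid hormone-binding protein known from striatal astrocytes, and Six3 a forebrain transcription factor.

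Cluster 3 (Aldoc, Gstm5, Mt1 and Mt3, the last 2 metallothioneins) made up 2.56% and 2.45% against 1.06% and 0.941%, a log2 difference of 1.33 ± 0.27 (adjusted p = 8.38e-05, edgeR). Its cells were shallow, at 0.519 of their libraries' median UMIs. Cluster 5 (Chrdl1, Lama3, Lhx2) made up 12.2% and 15.1% against 6.39% and 7.21% (log2 1.01 ± 0.20, adjusted p = 8.38e-05). Cluster 27 (Efna5, Slc38a1, Zic4) made up 1.61% and 1.29% against 0.316% and 0.917% (log2 1.21 ± 0.29, adjusted p = 0.000632). Cluster 20 passed the test under every alternative run for it. The adjusted p rose to 0.102 for cluster 3 and to 0.163 for cluster 27 without ATV-TfR low 1, to 0.07 and 0.0634 without ATV-TfR low 2, and to 0.0517 for cluster 5 without ATV-TfR low 2.

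In the negative bins cluster 20 was 7.58% and 4.94% of astrocyte-like cells with ATV-TfR and 4.89% and 6.73% with ATV-CD98hc. It was therefore lower in the low bin than in the negative bin under both ATVs, and lowest in ATV-CD98hc low. In the 1 control IgG negative library cluster 20 was 2.71%, below both ATV-TfR low pools. Cluster 5 was 12.0% and 11.9% in the ATV-TfR negative bins and 10.0% and 16% in those of ATV-CD98hc, so both ATV-CD98hc low pools lay below every negative pool.

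**Figure D2:**
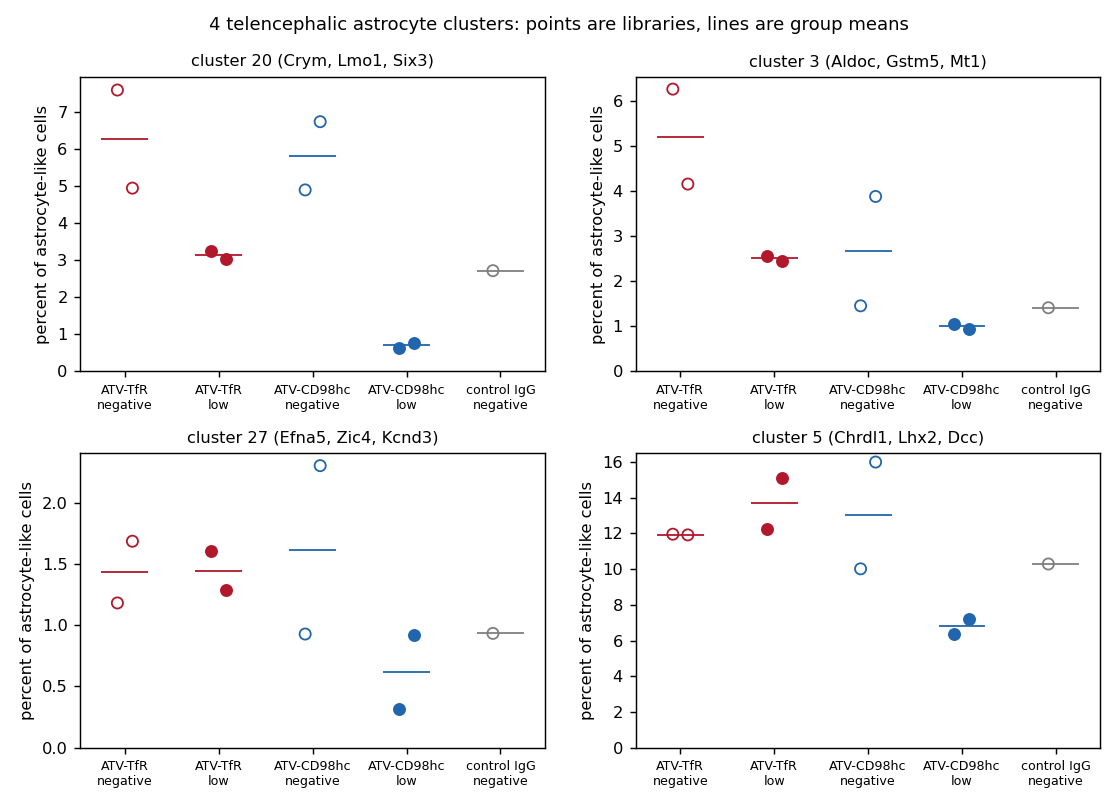
Share of astrocyte-like cells (percent) in 4 telencephalic clusters, by bin and antibody; each point is 1 library, and filled points are low bins. In cluster 20 the ATV-CD98hc low pools (0.631% and 0.775%) lie below all other libraries shown.

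RNA of the 2 targeted receptors was measured first in astrocyte-like cells. CPM below are of summed astrocyte-like UMIs per library, scaled with TMM factors unless said otherwise. Slc3a2 was at 302 and 301 CPM in ATV-TfR low and 166 and 137 CPM in ATV-CD98hc low, a log2 difference of 0.99 ± 0.08 (adjusted p = 4.51e-07, edgeR), with no overlap. Tfrc was at 30.6 and 32.2 CPM in ATV-TfR low and 52.2 and 47.7 CPM in ATV-CD98hc low, a log2 difference of -0.67 ± 0.07 (adjusted p = 4.03e-06), again with no overlap. For each receptor the lower level was in the group that carries its knock-in and received the ATV that binds it.

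The same pattern stood in the negative bins. There Slc3a2 was at 301 and 296 CPM with ATV-TfR and 123 and 155 CPM with ATV-CD98hc (log2 1.10 ± 0.15, adjusted p = 0.00171, edgeR). Tfrc was at 24.6 and 24.6 CPM against 54.0 and 43.9 CPM (log2 -1.01 ± 0.15, adjusted p = 0.00516). In the 1 control IgG negative library, whose mice carry neither knock-in, astrocyte-like cells held 262 CPM of Slc3a2 and 64.6 CPM of Tfrc, both without TMM scaling. The change from negative to low bin did not differ between the ATVs past the threshold for Slc3a2 (difference of log2 changes -0.09, adjusted p = 0.997) or Tfrc (0.34, adjusted p = 0.618). How reads of the mouse and human parts of the knock-in alleles were assigned is not given in the sources used here, so allele, counting and antibody cannot be told apart.

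In endothelial-like cells Tfrc was at 36.3 and 45.4 CPM in ATV-TfR low and 261 and 259 CPM in ATV-CD98hc low, the largest fall there among genes passing the naming rule (log2 -2.68 ± 0.14, adjusted p = 0.000285, edgeR). The control IgG low bins held 505 and 616 CPM of Tfrc in this class, without TMM scaling. Of their 3245 endothelial-like cells 2925 were of cluster 34, against 39 of 624 in ATV-TfR low and 796 of 4504 in ATV-CD98hc low. The part of this mix in the Tfrc levels was not tested. Endothelial Slc3a2 was at 252 and 240 CPM against 193 and 180 CPM and did not pass the test (adjusted p = 0.0915). Choroid plexus epithelial-like cells, which make cerebrospinal fluid, had 90.5 and 94.7 CPM of Slc3a2 in ATV-TfR low against 58.3 and 57.5 CPM (log2 0.68 ± 0.17, adjusted p = 0.015). Microglia-like cells had 201 and 202 CPM against 121 and 116 CPM, and there the adjusted p was 0.0925. In fibroblast-like cells Slc3a2 did not pass the test, and the sign of its difference turned on leaving out single libraries.

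Across all genes in astrocyte-like cells, 1847 of 17186 tested (10.7%) differed between the low bins, 781 higher (4.54%) and 1066 lower (6.2%) in ATV-TfR low, by edgeR's quasi-likelihood test at an adjusted p below 0.05. Most differences were small: 447 genes passed with an absolute log2 difference of at least 1, 48 higher and 399 lower. DESeq2 called 1063 genes (436 higher, 627 lower), and a fit that also held the negative libraries and the other low libraries 566. In an alternative chosen after seeing the data, the summed UMIs of each astrocyte cluster were scaled to the same number of cells per library. With this equal cluster mix 1056 genes passed (413 higher, 643 lower). No cells were drawn, and cluster 44, with 19 and 26 cells in ATV-TfR low and ATV-CD98hc low, was left out. Without ATV-CD98hc low 2, 1174 passed.

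Among the genes with the largest rises in ATV-TfR low, several were leading genes of astrocyte clusters. Crym was at 93.0 and 98.6 CPM in ATV-TfR low and 14.6 and 20.1 CPM in ATV-CD98hc low (log2 2.45 ± 0.10, adjusted p = 1.58e-10, edgeR). Cluster 20 held 2280 CPM of Crym in the low bins and the other 15 astrocyte clusters 1.4 to 47.8 CPM. With equal cluster mix the Crym difference was 0.76 (adjusted p = 1.98e-05), less than before. Pde10a, a cyclic nucleotide phosphodiesterase abundant in striatal neurons, was at 69.6 and 80.9 CPM against 28.2 and 28.2 CPM (log2 1.42 ± 0.07, adjusted p = 2.59e-09), and with equal mix at 0.83 (adjusted p = 1.09e-06). Within cluster 20 alone Pde10a differed by 1.36 (adjusted p = 0.00496) and Crym by 0.45 (adjusted p = 0.0782). Crym passed the test within clusters 2, 8, 10 and 22, by 1.44 to 2.84, from levels of 1.5 to 47.8 CPM.

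Car8, a carbonic anhydrase-related protein, was at 55.1 and 54.3 CPM against 29.2 and 35.8 CPM (log2 0.74 ± 0.08). Dcc, the netrin receptor, was at 139 and 138 CPM against 76.4 and 104 CPM (log2 0.62 ± 0.10). Unc13c, a vesicle-priming protein, was at 184 and 178 CPM against 118 and 122 CPM (log2 0.59 ± 0.07). All 3 are leading genes of cluster 19, and with equal cluster mix they differed by 0.26 (adjusted p = 0.0262), 0.12 (adjusted p = 0.367) and 0.07 (adjusted p = 0.59). Dcc was also not called by DESeq2. Atp1b1, a subunit of the sodium pump, was at 141 and 145 CPM against 86.1 and 96.8 CPM (log2 0.64 ± 0.07), and with equal mix at 0.20 (adjusted p = 0.0635). Nupr1, a stress-induced nuclear protein, was at 41.7 and 58.5 CPM against 27.6 and 28.8 CPM (log2 0.83 ± 0.11), and with equal mix at 0.23 (adjusted p = 0.147).

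The remaining named rises passed with equal cluster mix too. Wdr17 was at 277 and 273 CPM against 160 and 189 CPM (log2 0.66 ± 0.08), and Hmgn3, a nucleosome-binding protein, at 274 and 296 CPM against 181 and 195 CPM (log2 0.60 ± 0.07). Pmp22, a myelin and membrane protein, was at 160 and 152 CPM against 99.1 and 100 CPM (log2 0.65 ± 0.07). Haus3, an augmin subunit of the spindle, was at 27.1 and 26 CPM against 15.8 and 16.4 CPM (log2 0.72 ± 0.08). Lrrc8c, a subunit of volume-regulated anion channels, was at 45.7 and 54.3 CPM against 30.8 and 35.1 CPM (log2 0.60 ± 0.08). For each of these genes the 2 ATV-TfR pools lay above both ATV-CD98hc pools, which the naming rule required.

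Among genes passing the naming rule, which asks for an average log2 CPM of at least 4 and no overlap between pools, the largest fall was that of Rtl4, a gene derived from a retrotransposon, at 25.5 and 22.7 CPM in ATV-TfR low and 75.8 and 38.7 CPM in ATV-CD98hc low (log2 -1.24 ± 0.19, adjusted p = 0.000305, edgeR). The 2 ATV-CD98hc pools stood far apart, and DESeq2 did not call Rtl4. Nnat, an imprinted membrane protein called neuronatin, was at 412 and 398 CPM against 799 and 688 CPM (log2 -0.88 ± 0.08, adjusted p = 2.05e-06). It was lower in the negative bins of ATV-TfR as well (log2 -0.80 ± 0.15, adjusted p = 0.0152). Glipr2 was at 16.2 and 15.9 CPM against 34.1 and 27.2 CPM (log2 -0.93 ± 0.09), and Shisal1 at 12.1 and 10.9 CPM against 22 and 20.5 CPM (log2 -0.89 ± 0.09). Both were lower in the negative bins too, by -0.97 (adjusted p = 0.0133) and -1.22 (adjusted p = 0.00881).

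Tnc, which encodes the matrix protein tenascin C, was at 16.6 and 14.2 CPM against 23.1 and 29.1 CPM (log2 -0.77 ± 0.10), and Reln, the glycoprotein reelin, at 15.7 and 13.4 CPM against 24.0 and 24.6 CPM (log2 -0.75 ± 0.09). Basp1, a growth-associated membrane protein, was at 11.9 and 12.8 CPM against 21.9 and 20.3 CPM (log2 -0.77 ± 0.08). C4b, complement component 4, was at 23.2 and 24.0 CPM against 34.3 and 36.8 CPM (log2 -0.59 ± 0.07). Rpn2, a subunit of the oligosaccharyltransferase, was at 110 and 117 CPM against 203 and 155 CPM (log2 -0.65 ± 0.10). Agbl4, Shisa6 and Rasgrf1 fell by 0.64, 0.61 and 0.60 on the log2 scale. All of these falls passed with equal cluster mix, which weights astrocyte clusters and does not bear on RNA of other classes. Basp1 is highest in microglia-like and C4b in border macrophage-like cells, and the part of those cells' RNA was not tested.

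**Figure D3:**
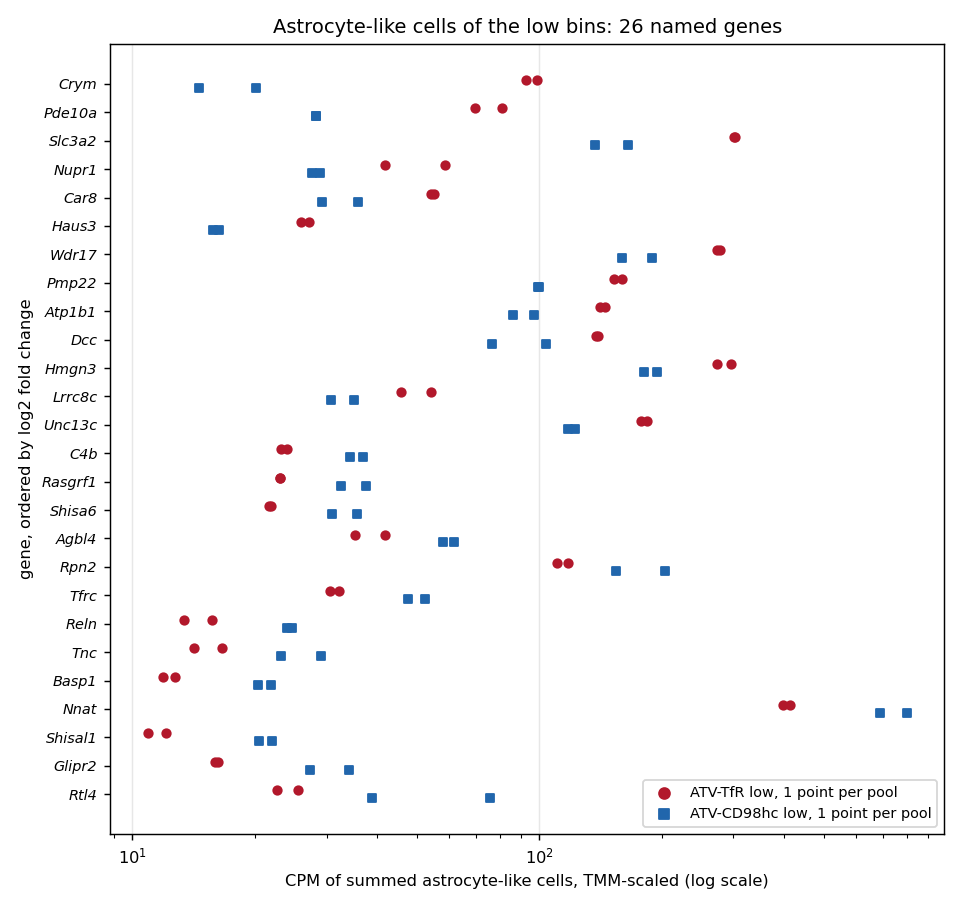
CPM (log axis) of the 26 genes named by rule in astrocyte-like cells, in each of 2 ATV-TfR low and 2 ATV-CD98hc low pools, ordered by log2 difference. Crym shows the widest gap, 93.0 and 98.6 CPM against 14.6 and 20.1 CPM, and Rtl4 the widest spread between ATV-CD98hc pools.

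Markers of other cell types also differed within astrocyte-like cells. All 12 endothelial markers were lower in ATV-TfR low, with a median log2 difference of -2.21, and so were 7 of 8 microglial markers, with a median of -2.05. None of 8 oligodendrocyte markers and none of 4 border macrophage markers tested passed (medians 0.11 and -0.42). Of 5 pericyte markers tested 3 were lower, with a median of -0.29, while pericyte-like cells were 0.593% and 0.498% of kept cells in ATV-TfR low and 0.322% and 0.475% in ATV-CD98hc low. Of 9 neuron markers 2 were higher, with a median of 0.15. Endothelial markers summed to 11.9 and 8.24 CPM in astrocyte-like cells of ATV-TfR low and 39.65 and 40.6 CPM in ATV-CD98hc low, without TMM scaling. In the negative bins, where endothelial-like cells were 1.31% to 1.73% of cells, the sum was 7.28 to 14.2 CPM. Microglial markers summed to 110 and 116 CPM in ATV-TfR low and 192 and 190 CPM in ATV-CD98hc low. In the ATV-TfR negative bins, with 33.1% and 23.1% microglia-like cells, they summed to 193 and 163 CPM, and in those of ATV-CD98hc, with 10.4% and 7.44%, to 128 and 135 CPM. No endothelial or microglial marker was at 0 in any low library.

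Over all genes 10.7% were called, 4.54% higher and 6.2% lower. Of genes highest in microglia-like cells 302 of 1424 (21.2%) were called, 36 higher and 266 lower. Of genes highest in endothelial-like cells 128 of 844 (15.2%) were called, 24 higher and 104 lower. Of genes highest in astrocyte-like cells 167 of 1211 (13.8%) were called, and there the balance was the other way, 116 higher and 51 lower. The part of other cells' RNA in the falls of these genes was not tested.

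**Figure D4:**
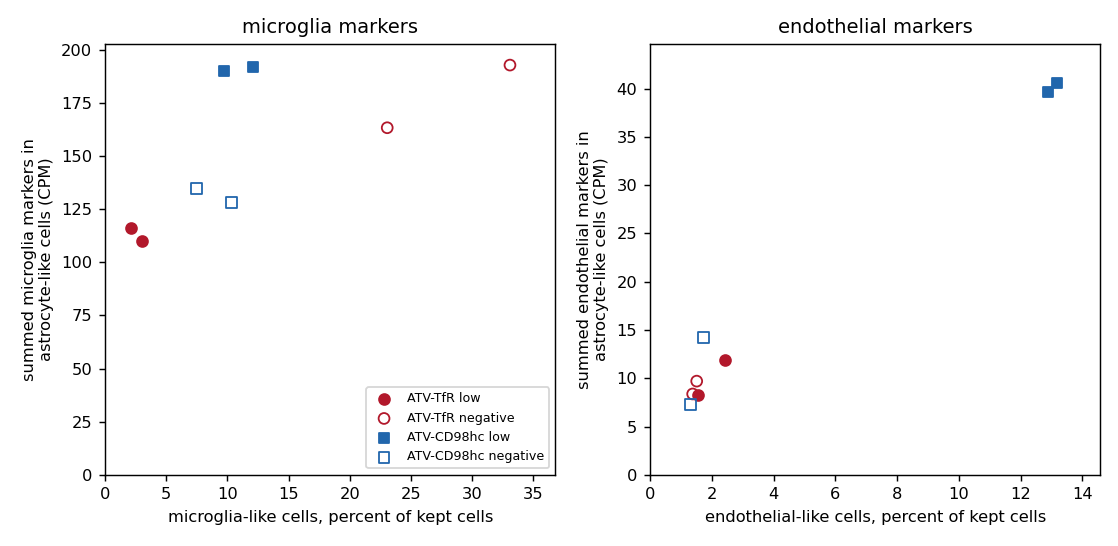
Summed CPM of microglial (left) and endothelial (right) markers in astrocyte-like cells against the share of that class among kept cells (percent); each point is 1 low or negative library. Endothelial markers reach 39.65 and 40.6 CPM in the ATV-CD98hc low libraries, with 12.9% and 13.2% endothelial-like cells, and 7.28 to 14.2 CPM in the other 6.

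Over all genes tested in astrocyte-like cells 10.7% were called, 4.54% higher and 6.2% lower, and the counts of list members are read against these shares. Of 13 endfoot and gap junction genes only Dag1, dystroglycan, passed, a share near that over all genes, at 133 and 139 CPM against 165 and 158 CPM (log2 -0.24 ± 0.07, adjusted p = 0.0276), and its call was lost without ATV-TfR low 1 (and in 3 other alternatives). The water channel Aqp4 was at 692 and 679 CPM against 769 and 692 CPM, and the gap junction protein Gja1 at 1120 and 1121 CPM against 1177 and 1158 CPM. Neither passed the test over all astrocyte-like cells. Within telencephalic astrocytes Aqp4 was lower (553 and 576 CPM against 711 and 675 CPM, log2 -0.30 ± 0.08, adjusted p = 0.0156), and within non-telencephalic ones it was at 0.14 ± 0.08 (adjusted p = 0.382); the difference between the subtypes was not tested. The median of the list was -0.05, against 0.00 for all genes. Of 11 transmitter clearance genes, Glul, glutamine synthetase, was higher (1721 and 1814 CPM against 1440 and 1373 CPM, log2 0.33 ± 0.08, adjusted p = 0.017). Slc6a11 was lower (1442 and 1490 CPM against 1920 and 1763 CPM, log2 -0.33 ± 0.08, adjusted p = 0.0191). With equal cluster mix neither passed (adjusted p = 0.0737 and 0.225). The glutamate transporters Slc1a2 (log2 0.01, adjusted p = 0.972) and Slc1a3 (log2 -0.06, adjusted p = 0.725) did not pass.

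Of 28 reactive-state genes tested, genes known to rise in astrocytes after injury or inflammation, 13 were lower and 1 was higher in ATV-TfR low, beside 6.2% and 4.54% of all genes, with a median of -0.47. None of the 28, Vim included, has its highest level in astrocyte-like cells, as 15975 of all 17186 genes tested do not. Cd14 (log2 -1.97 ± 0.32), Srgn (-1.83 ± 0.22), Hspb1 (-1.62 ± 0.21) and Tm4sf1 (-1.39 ± 0.26) fell furthest, each below 3 CPM in every low library and highest in neutrophil-like or endothelial-like cells. Gfap, the intermediate filament of reactive astrocytes, was lower by -0.27 ± 0.08 (adjusted p = 0.04). In clusters 22 and 2, where its low-bin level was highest (316 and 110 CPM), it was at 0.41 (adjusted p = 0.0563) and 0.04 (adjusted p = 0.915). Of the 15 clusters where it was tested it passed in cluster 18, where it was lower (log2 -0.59 ± 0.17, adjusted p = 0.0379). Vim, vimentin, was the 1 called higher, at 29.8 and 20.6 CPM against 18.1 and 19.2 CPM (log2 0.42 ± 0.12, adjusted p = 0.0326). Cd44 and Timp1 did not pass (log2 -0.14 and -0.37).

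Of 14 interferon-stimulated genes 6 were lower and 1 was higher, beside 6.2% and 4.54% of all genes, with a median of -0.33. None of the 14 has its highest level in astrocyte-like cells. Ifit1, Isg15 and Oasl2, which were lower, and Ifit3, which was higher, are all highest in endothelial-like cells. Astrocyte-like cells express some of them too: Ifit3, Usp18, Ifit1, Rsad2 and Oasl2 are leading genes of astrocyte cluster 44. It held 19 cells in ATV-TfR low and 26 in ATV-CD98hc low. Oasl2 (log2 -1.39 ± 0.39), Irf7 (-1.20 ± 0.30), Isg15 (-1.14 ± 0.24) and Bst2 (-0.77 ± 0.14) fell, and Ifit3 rose (0.53 ± 0.10, adjusted p = 0.0022). Their average log2 CPM was -0.29, -0.41, 0.11, 2.11 and 3.15, in the same order. The signal transducer Stat2 did not pass (log2 -0.07). Of 6 genes tested from the Fc receptor list, receptors of the IgG constant region and their signalling chain Fcer1g, 4 were lower, beside 6.2% of all genes: Fcgr1 (log2 -3.05 ± 0.33), Fcgr3 (-1.75 ± 0.22), Fcer1g (-1.56 ± 0.16) and Fcgr2b (-1.23 ± 0.28). All 4 are highest in microglia-like or border macrophage-like cells. In astrocyte-like cells of the low bins their average log2 CPM was -0.53, 0.55, 2.66 and -0.29, in the same order. The neonatal Fc receptor gene Fcgrt, which also serves IgG recycling, was at 47.9 and 48.1 CPM against 49.0 and 45.4 CPM (log2 0.02, adjusted p = 0.855), and Trim21 did not pass (log2 -0.11).

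Of 20 genes of cellular iron handling 2 were higher and 4 lower, beside 4.54% and 6.2% of all genes. All 6 are highest in another class: Tfrc, Slc40a1 and Slc39a8 in endothelial-like, Heph and Steap3 in fibroblast-like and Ftl1 in border macrophage-like cells. Steap3, the endosomal ferrireductase that acts with the transferrin receptor, was at 34.5 and 34.6 CPM against 27.1 and 29.0 CPM (log2 0.30 ± 0.07, adjusted p = 0.00929), and Ftl1, ferritin light chain, at 277 and 267 CPM against 234 and 228 CPM (log2 0.24 ± 0.07, adjusted p = 0.0336). Ferritin heavy chain Fth1 did not pass (log2 0.15, adjusted p = 0.302), nor did the iron importer Slc11a2 (log2 -0.04, adjusted p = 0.813). Besides Tfrc, the iron exporter Slc40a1 (log2 -0.65 ± 0.14), the metal importer Slc39a8 (-0.59 ± 0.15) and the ferroxidase Heph (-0.24 ± 0.06) were lower. With equal cluster mix Steap3 (adjusted p = 0.137), Ftl1 (0.195), Slc39a8 (0.176) and Heph (0.564) were not called, and Tfrc (log2 -0.67, adjusted p = 1.82e-06) and Slc40a1 (adjusted p = 0.003) were.

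Among the 7 genes of CD98hc and its light chains, Slc3a2 rose and Slc7a8 (log2 -1.52 ± 0.17) and Slc7a7 (-0.87 ± 0.14) fell, both highest in microglia-like cells. The light chain Slc7a5, LAT1, was at 24.3 and 27.3 CPM against 28.0 and 31.8 CPM and did not pass (log2 -0.21, adjusted p = 0.103). Slc7a6 did not pass either (log2 0.20, adjusted p = 0.331). Of 19 genes of amino acid supply and the integrated stress response 4 were higher, beside 4.54% of all genes: Nupr1, the glutamine transporter Slc38a2 (log2 0.71 ± 0.15, adjusted p = 0.00425), Eif4ebp1 (0.42 ± 0.11) and Ddit4 (0.25 ± 0.07). Atf4, the transcription factor at the centre of that response, did not pass (log2 -0.01, adjusted p = 0.947), nor did its target Asns (log2 -0.16). The 4 called genes are highest in another class: Nupr1 in fibroblast-like, Slc38a2 in oligodendrocyte-like, Eif4ebp1 in neutrophil-like and Ddit4 in endothelial-like cells.

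Of 16 circadian clock genes 4 were higher in ATV-TfR low and none lower, beside 4.54% of all genes higher, with a list median of 0.09. Dbp was at 144 and 162 CPM against 119 and 120 CPM (log2 0.36 ± 0.07, adjusted p = 0.00322), and Bhlhe40 at 86.0 and 92.1 CPM against 70.6 and 69.7 CPM (log2 0.35 ± 0.06, adjusted p = 0.00208). Per1 was at 38 and 41.6 CPM against 27 and 32.2 CPM (log2 0.42 ± 0.08, adjusted p = 0.00232), and Ciart at 9.62 and 11.2 CPM against 7.29 and 8.01 CPM (log2 0.44 ± 0.10, adjusted p = 0.0115). The 4 genes passed with equal cluster mix as well. Without ATV-TfR low 2 the calls of Dbp and Ciart were lost. Arntl, which encodes BMAL1, and Clock did not pass (log2 -0.13 and -0.02). The hour of day at which brains were taken is not given in the sources used here.

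CLOCK and BMAL1 bind the E-box CACGTG, which reads the same on both strands. The 250 bases before the start sites of 3 of these genes are shown because their RNA rose together, from RefSeq promoters on GRCm38.p6, 5′ to 3′ on the gene's strand with each CACGTG in capitals. Of the 32851 RefSeq promoters, 6.02% hold the motif in these 250 bases. Ciart, on the minus strand at chr3:95882229-95882478, holds 3 matches. The first of 2 Per1 starts, at chr11:69098699-69098948 on the plus strand, holds 1 match, and the second none. Dbp, on the plus strand at chr7:45704997-45705246, holds none in this window. A match is a description of the sequence only.
Ciart: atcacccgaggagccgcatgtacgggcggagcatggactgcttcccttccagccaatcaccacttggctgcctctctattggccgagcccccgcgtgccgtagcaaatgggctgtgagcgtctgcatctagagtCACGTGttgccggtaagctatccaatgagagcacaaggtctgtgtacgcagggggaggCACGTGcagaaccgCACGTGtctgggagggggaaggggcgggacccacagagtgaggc
Per1: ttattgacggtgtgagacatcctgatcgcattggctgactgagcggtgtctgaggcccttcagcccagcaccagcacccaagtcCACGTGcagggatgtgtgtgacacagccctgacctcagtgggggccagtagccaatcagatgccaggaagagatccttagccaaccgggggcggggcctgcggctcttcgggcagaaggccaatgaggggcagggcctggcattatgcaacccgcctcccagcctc
Dbp: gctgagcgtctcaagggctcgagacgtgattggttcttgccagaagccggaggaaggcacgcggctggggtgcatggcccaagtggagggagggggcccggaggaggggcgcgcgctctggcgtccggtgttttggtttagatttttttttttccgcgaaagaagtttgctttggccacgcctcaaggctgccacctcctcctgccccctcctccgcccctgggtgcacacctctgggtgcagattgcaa

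Of 22 genes of region patterning 5 were higher and none lower, beside 4.54% and 6.2% of all genes, with a list median of 0.16. En2 (log2 0.85 ± 0.22, below 2 CPM), Zic4 (0.43 ± 0.11), Zic1 (0.34 ± 0.09) and Emx2 (0.27 ± 0.07) led them. With equal cluster mix En2 stayed past the threshold (adjusted p = 0.00751), and Emx2 was at -0.02 (adjusted p = 0.928). All 4 lost their call on leaving out single libraries: En2 without ATV-TfR low 1, ATV-CD98hc low 1 or ATV-CD98hc low 2, Zic4 without ATV-TfR low 1 or ATV-CD98hc low 1, Zic1 without ATV-TfR low 1 or ATV-CD98hc low 2, and Emx2 without ATV-TfR low 2 or ATV-CD98hc low 1. Lhx2 (log2 0.15, adjusted p = 0.271) and Otx1 (0.16, adjusted p = 0.181) did not pass. Of 16 genes of cholesterol synthesis, Cyp51 (log2 0.31 ± 0.08) and Msmo1 (0.27 ± 0.08) were higher, beside 4.54% of all genes, while Hmgcs1 (log2 -0.01) did not pass.

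Over all genes 4.54% were higher and 6.2% lower. Of 17 lysosomal genes 3 were lower, among them Psap (log2 -0.28 ± 0.08) and Gaa (-0.22 ± 0.07), and none was higher. The cathepsin genes Ctsb (log2 -0.09) and Ctsd (log2 -0.22, adjusted p = 0.0624) did not pass. Of 10 lipid carrier genes Abcg1 (log2 -0.86 ± 0.24) and Lrp1 (-0.24 ± 0.07) were lower, and Apoe (log2 -0.12, adjusted p = 0.576) and Clu (log2 -0.19, adjusted p = 0.186) did not pass over all astrocyte-like cells. Within telencephalic astrocytes both were lower, Clu by -0.37 ± 0.08 (adjusted p = 0.0049) and Apoe by -0.30 ± 0.09 (adjusted p = 0.0489), and within non-telencephalic ones they were at -0.07 (adjusted p = 0.712) and 0.06 (adjusted p = 0.836). Of 10 heat shock genes Hspa5, the chaperone of the endoplasmic reticulum (log2 0.33 ± 0.08), and Hsph1 (0.25 ± 0.08) were higher, and Hspa1a and Hspa1b did not pass (log2 0.24 and -0.10). Of 13 immediate early genes Dusp1 (log2 0.49 ± 0.14) and Jun (0.34 ± 0.06) were higher and Klf2 was lower (-2.0 ± 0.24). Dusp1, Jun and Klf2 are all highest in neutrophil-like cells. Fos and Junb did not pass (log2 -0.14 and -0.16).

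Many of these small list differences lost their call when 1 library was left out. Such a fit leaves 1 pool in a group, and a call can be lost there through lower power alone. Of 51 called list members taken by the naming rule, 19 lost their call without ATV-TfR low 1, 20 without ATV-TfR low 2, 12 without ATV-CD98hc low 1 and 18 without ATV-CD98hc low 2. The call held without each of the 4 libraries in turn for 21, among them Slc3a2, Tfrc, Steap3, Nupr1, Slc38a2, Per1, Bhlhe40, Jun, Klf2, Ifit3, Bst2, Slc7a7, Slc7a8, Fcgr1, Fcgr3, Fcer1g, Cd14, Srgn, Hspb1 and Tm4sf1.

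**Figure D5:**
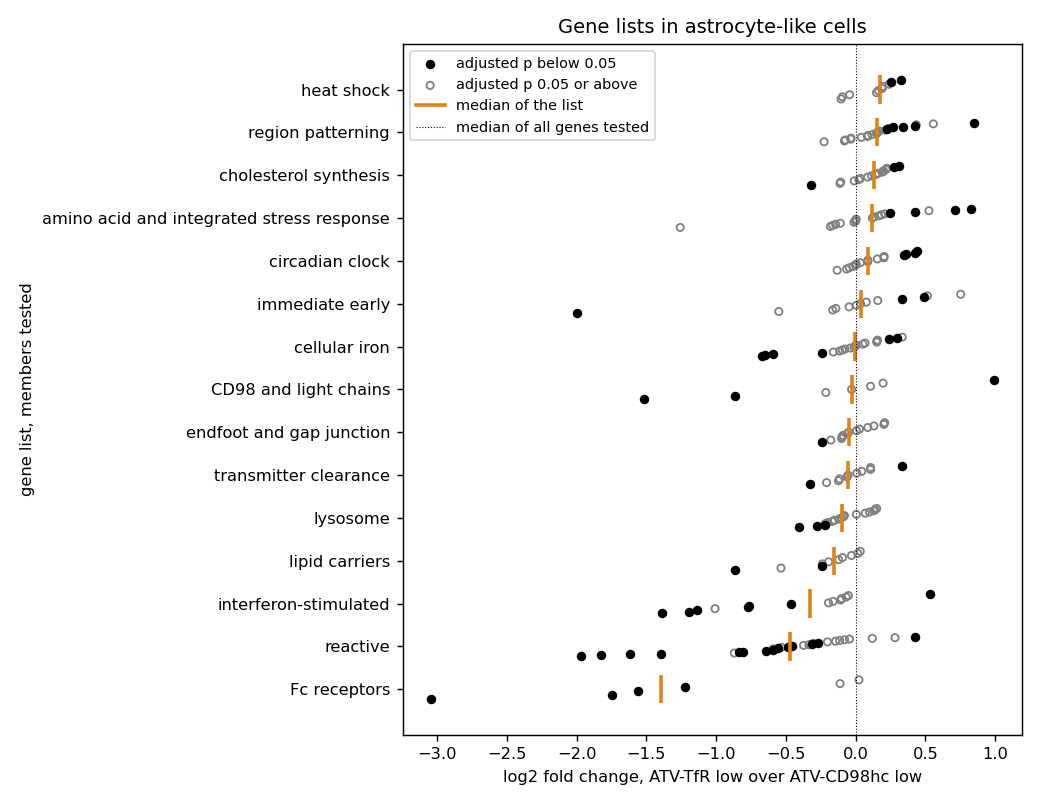
Log2 difference, ATV-TfR low over ATV-CD98hc low, of every tested member of 15 gene lists in astrocyte-like cells; filled points passed the test, and orange bars are list medians. The Fc receptor, reactive and interferon lists have medians of -1.39, -0.47 and -0.33, and the other 12 lie between -0.16 and 0.18.

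Whether a difference belonged to the low bin was tested as the change from negative to low bin in ATV-TfR minus that in ATV-CD98hc, with the pool as a block. Of 16610 genes 249 (1.5%) passed, 25 with a more positive change in ATV-TfR (0.151%) and 224 with a more negative one (1.35%), and 221 of them were also among the 1847 called between the low bins (88.8% of the 249, 12.0% of the 1847). The log2 change of Crym from negative to low was -0.93 with ATV-TfR and -3.42 with ATV-CD98hc, a difference of 2.49 ± 0.22 (adjusted p = 2.06e-05, edgeR). Its negative-bin levels were 239 and 151 CPM with ATV-TfR and 181 and 198 CPM with ATV-CD98hc. Between the negative bins themselves 73 of 13519 genes (0.54%) were called, 64 higher (0.473%) and 9 lower (0.0666%) with ATV-TfR, and 56 of these were called between the low bins too. The ATV negative libraries held 1438 to 3232 astrocyte-like cells each and the low libraries 10136 to 14369. The test between the negative bins thus had less power, and the numbers called in the bins are not compared. The number called for the difference of changes varied with the pools held, and each fit without 1 pool leaves 1 pool in that group.

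Both astrocyte subtypes were tested apart. In telencephalic astrocytes 1373 of 15808 genes (8.69%) were called, 551 higher (3.49%) and 822 lower (5.2%), and in non-telencephalic astrocytes 824 of 15788 (5.22%), 310 higher (1.96%) and 514 lower (3.26%). They shared 471 genes, 34.3% of the first list and 57.2% of the second, of which 468 had the same direction. In telencephalic astrocytes Crym was at 164 and 164 CPM against 30.9 and 36.1 CPM (log2 2.28 ± 0.08), Pde10a at 109 and 120 CPM against 36.1 and 38.2 CPM (1.62 ± 0.07), and Efna5, an ephrin, at 39.8 and 33.5 CPM against 13.8 and 21.6 CPM (1.01 ± 0.13). Nnat (log2 -1.19 ± 0.08), the transcription factor gene Nr2f2 (-1.12 ± 0.09), Csmd3 (-1.05 ± 0.11) and Shisal1 (-1.03 ± 0.10) had the largest falls there among genes passing the naming rule.

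In non-telencephalic astrocytes Cyp26b1, a retinoic acid-degrading enzyme, was at 62.5 and 47.5 CPM against 34.6 and 29.0 CPM (log2 0.79 ± 0.11). Haus3 (0.70 ± 0.10) and Car14, a carbonic anhydrase (0.70 ± 0.10), rose as well. The microglial genes C1qb (log2 -1.86 ± 0.16) and Elmo1 (-1.32 ± 0.11) had the largest falls among genes passing that rule, followed by Rtl4 (-1.0 ± 0.15) and Glipr2 (-0.92 ± 0.09). Slc3a2 was higher in both subtypes, by 0.94 ± 0.08 in telencephalic and 1.06 ± 0.09 in non-telencephalic astrocytes, and Tfrc lower, by -0.75 ± 0.08 and -0.60 ± 0.08. The differences between subtypes were not tested.

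In the other classes, endothelial-like cells had 369 of 12148 genes called (3.04%), 223 higher (1.84%) and 146 lower (1.2%) in ATV-TfR low, between cells of a different cluster mix. Pi16 was at 154 and 118 CPM against 14.9 and 13.3 CPM (log2 3.29 ± 0.17), Emp3 at 145 and 150 CPM against 20.4 and 23.9 CPM (2.73 ± 0.13) and S100a4, a calcium-binding protein, at 60.7 and 64.6 CPM against 6.05 and 9.95 CPM (2.92 ± 0.25). Penk, proenkephalin, was at 86.0 and 28.3 CPM against 0 and 1.59 CPM. After Tfrc, the named falls were Rasgrp4 (log2 -2.60 ± 0.33), the fractalkine receptor Cx3cr1 (-2.35 ± 0.31), which is highest in microglia-like cells, and Nos2 (-2.30 ± 0.34). Microglial markers summed to 153 and 127 CPM in endothelial-like cells of ATV-TfR low and 248 and 254 CPM in ATV-CD98hc low.

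Fibroblast-like cells had 1572 of 9152 genes called (17.2%), 834 higher (9.11%) and 738 lower (8.06%), and most cells were of cluster 45 in ATV-TfR low and of cluster 30 in ATV-CD98hc low. Pericyte markers summed to 502 and 809 CPM in fibroblast-like cells of ATV-TfR low and 5083 and 5429 CPM in ATV-CD98hc low, and endothelial markers to 190 and 248 CPM against 728 and 828 CPM; their part was not tested. Cnksr2 (log2 4.52 ± 0.52), Lrrtm3 (4.45 ± 0.67), the fatty acid-binding protein Fabp4 (3.48 ± 0.71) and Car13 (3.46 ± 0.61) were higher. Slc16a11 and Col7a1, type VII collagen, had no UMI in ATV-TfR low against 26 and 29 UMIs and 14 and 30 UMIs in ATV-CD98hc low, and were at least 14.4-fold and at least 11.5-fold lower, set against a floor of 3 counts over the group. Lpar3 and Pgpep1l had 1 UMI each in ATV-TfR low and 45 and 41 UMIs in ATV-CD98hc low.

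Microglia-like cells showed no called gene of 12017 (0.0%) by edgeR, with 1127 at an unadjusted p below 0.05, and DESeq2 called 72. Pericyte-like cells showed none of 4895 by edgeR (0.0%, 284 at an unadjusted p below 0.05) and none by DESeq2. Oligodendrocyte-like cells had 69 of 10618 called (0.65%), 14 higher (0.132%) and 55 lower (0.518%). Hcn2, a pacemaker channel, was at 273 and 245 CPM in ATV-TfR low against 50.9 and 62.6 CPM (log2 2.19 ± 0.17), and the protease gene Klk6 at 144 and 160 CPM against 39.9 and 47.6 CPM (1.80 ± 0.17). Klk6 leads cluster 12, which held 163 of 695 oligodendrocyte-like cells in ATV-TfR low and 71 of 426 in ATV-CD98hc low. The part of this mix was not tested. Bnip3 (1.38 ± 0.21) and Spock1 (1.16 ± 0.16) were also higher, and both calls were lost without ATV-CD98hc low 1 and without ATV-CD98hc low 2. The named falls were Cldn5, Itm2a and Flt1, genes of endothelium, and Ifi27l2a. Endothelial markers summed to 15.3 and 35.2 CPM in these cells in ATV-TfR low and 211 and 525 CPM in ATV-CD98hc low, and their part was not tested.

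Choroid plexus epithelial-like cells had 178 of 11143 genes called (1.6%), 8 higher (0.0718%) and 170 lower (1.53%). The sulfotransferase genes Sult1c2 (49.8 and 56.3 CPM against 32.1 and 17.0 CPM, log2 1.02 ± 0.20) and Sult1c1 (log2 1.05 ± 0.29), the transferrin gene Trf (545 and 591 CPM against 425 and 262 CPM, log2 0.72 ± 0.19) and Pdk3 (0.68 ± 0.19) were higher. The named falls were C1qb, C1qa, C1qc and Elmo1, by -4.11, -3.86, -3.29 and -4.03, all highest in microglia-like cells. Microglial markers summed to 72.2 and 75.5 CPM in this class in ATV-TfR low and 284 and 238 CPM in ATV-CD98hc low.

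T or NK cell-like cells, whose cluster also held 4 of 8 monocyte markers, had 18 of 3579 genes called (0.503%), 2 higher (0.0559%) and 16 lower (0.447%). C1qb, Ly6c1, Itm2a and Igfbp7 had no UMI in ATV-TfR low there and were at least 16.9-, 9.6-, 6.56- and 6.32-fold lower. Hpgd (log2 1.92 ± 0.45) and the chemokine Ccl6 (1.61 ± 0.36) were higher. Border macrophage-like cells, whose cluster also held 5 of 8 monocyte or dendritic cell markers, had 18 of 6495 called (0.277%), 2 higher (0.0308%) and 16 lower (0.246%). Flt1, Clnk and Itm2a had no UMI in ATV-TfR low and were at least 15.1-, 8.04- and 7.79-fold lower, Cldn5 fell by 4.68, and the neuronal gene Camk2n1 (1.56 ± 0.30) and the astrocytic gene Hes5 (1.45 ± 0.28) were higher. Endothelial markers summed to 32.2 and 44.8 CPM in border macrophage-like cells of ATV-TfR low and 442 and 466 CPM in ATV-CD98hc low.

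Oligodendrocyte precursor-like cells had 10 of 4177 genes called (0.239%), 4 higher (0.0958%) and 6 lower (0.144%), and none of the 8 taken by the naming rule was called with the replicate number as a block. Cnp and Mag, genes of mature myelin, and Tuba1a were among the higher genes, by 4.25 ± 0.65, 3.01 ± 0.44 and 3.10 ± 0.53. C1qa, C1qc, Ctss and Csf1r, genes of microglia, had no UMI in ATV-TfR low and were at least 34.9-, 28.5-, 27.3- and 13.2-fold lower. Oligodendrocyte markers summed to 2504 and 6225 CPM in this class in ATV-TfR low and 629 and 434 CPM in ATV-CD98hc low. Tanycyte-like cells, of the lower ventricle wall, had 1 of 4365 called (0.0229%), Cldn5, which fell by 6.53.

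Ependymal-like cells, the ciliated lining of the ventricles, numbered 42 and 25 in ATV-TfR low and 24 and 22 in ATV-CD98hc low, and 414 of 4643 genes were called (8.92%), 210 higher (4.52%) and 204 lower (4.39%). Wfdc2, a secreted protease inhibitor, had 344 and 303 UMIs in ATV-TfR low and none in ATV-CD98hc low, at least 137-fold higher. Rbp4, retinol-binding protein, had 139 and 194 UMIs against none, at least 70.6-fold higher, and the transcription factor gene Spdef 149 and 145 UMIs against none, at least 62.3-fold higher. Spp2 had 356 and 364 UMIs against 1 and 0. Rspo3 (log2 -3.31 ± 0.44), Paqr5 (-3.27 ± 0.41), Kcnh1 (-3.06 ± 0.62) and Robo2 (-2.63 ± 0.49) were the named falls, and Kcnh1 was not called by DESeq2. Sspo, which encodes SCO-spondin, the glycoprotein of the subcommissural organ, was added after its values were seen. It had 886 and 739 UMIs in ATV-TfR low against 1 and 3, and at least 5 UMIs in 19 of 42 and 15 of 25 cells against none of 24 and 22. In the negative bins 3 of 104 and 5 of 103 cells with ATV-TfR and 1 of 32 and 1 of 31 with ATV-CD98hc held 5 or more. Foxj1, the master gene of motile cilia, had UMIs in 75.0% to 88.0% of ependymal-like cells of the 4 low libraries. Tmem212, another ependymal marker, had UMIs in 73.8% and 72% of these cells in ATV-TfR low against 95.8% and 100% in ATV-CD98hc low, and in 93.8% to 100% in the ATV negative bins.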

How the data were processed

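Brain cells sorted by AF647 signal were profiled by droplet RNA sequencing. The values are deposited UMI counts, whole numbers per gene and barcode that the authors made with Cell Ranger 7.1.0, per the file headers. The submitters' processing notes name mm10 and GRCm38. Libraries were taken from the number after each barcode's hyphen and the deposited sample index. The members and all gene and marker lists were chosen with earlier results of these data known.

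A barcode was kept if it had 500 genes or more, 800 UMIs or more and no more than 10% mitochondrial UMIs. Scrublet in scanpy 1.11.5 marked doublets; where it marked under 0.5% or over 25% the cells above the score's percentile 94 were removed. The 108192 remaining cells of 11 negative and low libraries were clustered (2000 variable genes, 50 components, 15 neighbours, Leiden resolution 2 with igraph 0.11.9 and leidenalg 0.10.2) into 48 clusters. Of these 42 were named from marker lists, giving 17 classes, and 2598 of the 66459 low-bin cells stayed unnamed. Clusters 11, 17 and 32 held 10 of 10 astrocyte markers but were led by neuronal or microglial genes. Those genes were chosen after the clusters were seen, and the 3 clusters were left out of the astrocyte-like class. Their mean shares of kept cells were 1.18%, 2.76% and 0.238% in ATV-TfR low. In ATV-CD98hc low they were 0.547%, 0.982% and 1.33% (adjusted p = 0.0235, 0.00237 and 0.00435, edgeR).

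Summed UMI counts per class and library, for classes with at least 20 cells in each library, were tested with edgeR 4.0.16 (quasi-likelihood, TMM) in R 4.3.3, and cell counts per library likewise with the library's cells as offset. The threshold was a Benjamini-Hochberg adjusted p below 0.05 over all features tested. Genes named per comparison were the largest called changes in each direction (up to 12 in astrocyte-like cells, 4 in other classes and subtypes) with no overlap between pools and an average log2 CPM of at least 4, without mitochondrial and sex-specific genes and unnamed gene models. Both receptors were added, and from each list up to 4 members called in each direction and the first 2 uncalled. Tested on simulated data for the astrocyte comparison (16893 genes), the fit recovered 100.0% of 100 genes changed by 1 on the log2 scale and called 0.12% of 16693 unchanged genes. Alternatives were DESeq2 1.42.0, RLE scaling, no filter, a replicate block, each library left out, other cell filters, thinning to 1500 UMIs and all libraries in 1 fit; equal cluster mix was added after seeing the data. Same-numbered pools share only a number. Some genes taken by the naming rule are not reported here.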

Additional observations from a re-analysis of the deposited data

Results flagged for a closer look

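For 11 of the genes named in astrocyte-like cells the log2 change from negative to low bin differed between the ATVs. The test was edgeR's quasi-likelihood test of the difference itself, with Benjamini-Hochberg adjustment over 16610 genes. Of all 16610 genes, 249 (1.5%) passed. Called genes were named for their difference between the low bins, and the same low libraries enter this test. The number of named genes that passed is therefore not read as an excess. Differences are ATV-TfR minus ATV-CD98hc.

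A positive difference was found for 4 genes, whose highest level among the classes was in tanycyte-like (Crym), oligodendrocyte precursor-like (Car8, Dcc) or choroid plexus epithelial-like cells (Atp1b1). Crym differed by 2.49 (adjusted p = 2.06e-05), from changes of -0.93 with ATV-TfR and -3.42 with ATV-CD98hc. Dcc differed by 0.85 (adjusted p = 0.0413), from 0.15 and -0.70. Car8 differed by 0.73 (adjusted p = 0.0183), from 0.06 and -0.67, and the sodium pump subunit gene Atp1b1 by 0.74 (adjusted p = 0.0405), from 0.02 and -0.72. Crym leads astrocyte cluster 20, at a mean of 6.26% of astrocyte-like cells in ATV-TfR negative and 3.14% in ATV-TfR low. With ATV-CD98hc it was 5.81% and 0.703%. Car8 and Dcc are leading genes of cluster 19. Between the low bins Dcc and Atp1b1 were not called with equal cluster mix. The part of the cluster mix in the changes was not tested.

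The other genes had a negative difference, with fitted changes below 0 in ATV-TfR and above 0 in ATV-CD98hc. Basp1 differed by -0.98 (adjusted p = 0.0128), Slc7a8 by -2.11 (adjusted p = 0.0132), Hspb1 by -2.76 (adjusted p = 0.0146) and Srgn by -3.36 (adjusted p = 0.0146). The Fc receptor genes Fcgr1, Fcgr3 and Fcer1g differed by -3.71 (adjusted p = 0.024), -4.14 (adjusted p = 0.000793) and -2.88 (adjusted p = 5.9e-05). Fcgr3 changed by -1.88 with ATV-TfR and 2.25 with ATV-CD98hc, and Fcer1g by -1.33 and 1.55. Levels were low, with an average log2 CPM in the low bins of -0.53 for Fcgr1, 0.55 for Fcgr3 and 2.66 for Fcer1g. It was 0.35 for Srgn, 0.75 for Hspb1 and 1.33 for Slc7a8. Basp1, Slc7a8, Fcgr1 and Fcgr3 were highest in microglia-like cells, Fcer1g in border macrophage-like, Srgn in neutrophil-like and Hspb1 in endothelial-like cells. Microglia-like cells were 33.1% and 23.1% of the ATV-TfR negative bins, 3.00% and 2.14% of ATV-TfR low, 10.4% and 7.44% of the ATV-CD98hc negative bins and 12.1% and 9.72% of ATV-CD98hc low; their part in these differences was not tested.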

How the results depend on the processing

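The replicate block, for pools that share only a number (deviations of same-numbered pools correlated at 0.057 across 8406 genes), gave 3 called classes in place of 6 and 4301 called genes in the other classes in place of 2649; B cell-like cells were at -2.91 (adjusted p = 0.257), smooth muscle-like cells at 2.46 (0.171), cluster 26 at 6.28 (0.0622) and oligodendrocyte precursor-like cells at -0.057. DESeq2 called 1063 astrocyte genes in place of 1847, 1001 subtype genes in place of 2197 and 1150 in the other classes. With no filter 3994 were called in the other classes and 397 for the difference of low minus negative changes in place of 249. With all libraries in 1 fit 566 astrocyte genes were called and the astrocyte-like share, 0.34, had adjusted p = 0.29; equal cluster mix gave 1056. TMM factors over classes put astrocyte-like cells at 0.11 (0.892), smooth muscle-like cells at 2.18 (0.073) and precursors at -0.28, and the stricter cell filter put precursors at -0.040.

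With cells outside the astrocyte-like class as denominator B cell-like cells were at -1.73 (adjusted p = 0.245), and border macrophage-like (0.69, adjusted p = 0.0357), choroid plexus epithelial-like (0.80), fibroblast-like (0.32) and neutrophil-like cells (0.61) turned direction.

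Leaving out 1 library gave 3 to 4 classes, 3 to 8 astrocyte clusters in place of 7, 1174 to 2159 astrocyte genes, 1455 to 3829 subtype genes and 210 to 1678 genes for the difference of changes. It gave -5.18 to -2.02 for B cell-like, 0.30 to 0.38 for astrocyte-like and 2.01 to 3.00 for smooth muscle-like cells. The calls of B cell-like and smooth muscle-like cells were lost without any 1 library. The sign turned for uncalled results, with ranges of -0.72 to 0.50 for choroid plexus epithelial-like, -0.097 to 1.86 for neuron-like, -1.20 to 1.20 for neutrophil-like and -0.76 to 0.59 for precursor-like cells, -0.026 to 0.25 for cluster 7, -0.26 to 0.18 for Slc3a2 in fibroblast-like cells, and in astrocyte-like cells -0.053 to 0.075 for Slc1a2, -0.63 to 0.055 for Timp1, -0.085 to 0.0070 for Slc11a2, -0.097 to 0.071 for Atf4, -0.35 to 0.035 for Asns, -0.37 to 0.063 for Fos, -0.38 to 0.093 for Hspa1b, -0.099 to 0.085 for Hmgcs1, -0.031 to 0.080 for Fcgrt and -0.067 to 0.027 for Clock.

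Equal cluster mix turned the sign of the called Emx2 (-0.015, no longer called) and of the uncalled Slc1a2 (-0.084), Lhx2 (-0.090), Fcgrt (-0.0026) and Clock (0.011). Thinning gave Atf4 0.011, Hspa1b 0.66, Hmgcs1 0.021 and Trim21 0.10, all libraries in 1 fit gave Atf4 0.0058 and Hmgcs1 0.0071, and at most 5% mitochondrial UMIs gave Fcgrt -0.0023, all uncalled. The causes were not tested. Of single genes, classes and clusters under the alternatives, 1995 results kept direction and side of the threshold, 269 lost a call, 31 gained one and 40 turned. The median log2 difference of 8406 genes was 0.01 under TMM, RLE and DESeq2 scaling. Depth limits classes of few cells: a count of 0 cells or UMIs allows up to 3.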
